A study of Myotis pilosus with 4 samples.

Results

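miR-193-3p, miR-365-3p and miR-365-5p are 3 of the 196 mature miRNAs listed for the bat Myotis ricketti, and they were described here in small RNA from the brain and the white fat (WAT) of hibernating and active animals. They were chosen by name, as miRNAs known from brown fat, with earlier results of these data known. They were found by their mature sequences among the sequenced tags, a tag being 1 distinct read sequence with its number of reads. All 3 were carried mainly by WAT, which held at least 97.3% of their RPM (reads per 1000000 clean reads) by the listed sequences. Between states, miR-193-3p was lower in hibernating than in active WAT under every scaling and count rule tried. For both arms of miR-365 the direction depended on the scaling when the listed sequence alone was counted. A further miR-193 sequence, which has the same seed and is absent from the list of 196, was more abundant than the listed miR-193-3p in all 4 libraries.

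The data were 4 small RNA libraries of adult bats, with 1 library for each tissue and state: HB (hibernating brain), AB (active brain), HA (hibernating WAT) and AA (active WAT). Each was made from the mixed RNA of 3 bats, brain and WAT of a state came from the same bats, whole brain was used for HB and AB and intra-abdominal fat for HA and AA, and the sample labels call the active state aroused. Active bats were netted in autumn and torpid bats at the same place in late winter, so state cannot be told apart from season. The paper reports the lowest RNA integrity for the AA pool and a larger share of rRNA reads in HA than in AA. State in WAT cannot be told apart from these either. Depth was 11437337 clean reads in AA, 11542470 in HA, 10007650 in AB and 12159756 in HB. Without replicates no p-value was given, and each difference is between 2 pooled libraries. Intervals are exact 95% intervals for counting error only, and they treat reads as independent. Reads copied from 1 molecule by PCR are not independent, so the intervals can be too narrow. Differences between bats and between libraries are left out of them. Fewer cells of a type and less RNA per cell cannot be told apart in such tissue RNA.

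miRNAs of the miR-193 and miR-365 families are encoded near each other in several mammals. They have been reported to promote the formation of brown adipocytes, in part by holding down genes of the muscle lineage. This role was not tested here. A mature miRNA binds its target mRNAs mostly through its seed, bases 2 to 8, and the 5p and 3p arms are cut from the same hairpin but have different seeds. Brown fat burns lipid for heat and is used by hibernators during arousal, whereas white fat stores the lipid on which they live through the winter. No library of brown fat was made in the study. Its list of hairpins puts those of miR-193 and miR-365 on separate scaffolds of the assembly used, so the members are treated here as 3 separate miRNAs.

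The listed mature sequences are shown because every count below starts from them, with the seed in capitals and 5′ ends to the left.
miR-193-3p: aACTGGCCcacaaagtcccgct
miR-365-3p: tAATGCCCctaaaaatccttat
miR-365-5p: aAGGGACTttcaggggcagc
miR-193-3p and miR-365-3p are 22 nt long and miR-365-5p is 20 nt long. The 3 seeds differ from each other, and 0 other listed miRNAs had any of them.

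The tissue labels were checked against miRNAs of neurons. The 8 miRNAs miR-124a-3p, miR-124b-3p, miR-124-5p, miR-9-3p, miR-129-3p, miR-129-5p, miR-153-3p and miR-153-5p summed to 53017 RPM in AB and 40435 RPM in HB, but to 222 RPM in AA and 138 RPM in HA. In both WAT libraries 3 of the 8 had 0 reads. The most abundant, miR-124a-3p, had 449967 reads in AB and 415697 in HB against 292 in AA and 286 in HA. Brain and WAT libraries therefore differed as their labels say.

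miR-193-3p, counted as the tag identical to the listed sequence, had 541 reads in AA, 106 in HA, 13 in HB and 5 in AB. Its level was 47.3 RPM in AA (95% interval 43.4 to 51.5), 9.18 in HA (7.52 to 11.1), 1.07 in HB (0.569 to 1.83) and 0.50 in AB (0.162 to 1.17). AA was the highest library, HA lay between AA and the brain libraries, and the intervals of HB and AB overlapped. By reads, miR-193-3p ranked 39 of 196 in AA, 65 in HA, 131 in HB and 147 in AB.

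miR-365-3p had 598 reads in AA, 330 in HA, 12 in HB and 7 in AB. Its level was 52.3 RPM in AA (48.2 to 56.6), 28.6 in HA (25.6 to 31.8), 0.987 in HB (0.510 to 1.72) and 0.699 in AB (0.281 to 1.44). The order of the libraries was that of miR-193-3p, with a smaller gap between HA and AA, and the brain libraries again did not differ beyond their intervals. In AA the levels of miR-193-3p and miR-365-3p had overlapping intervals, whereas in HA that of miR-365-3p was the higher.

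miR-365-5p, the other arm of the miR-365 hairpin, had 113 reads in AA, 108 in HA, 3 in AB and 0 in HB. Its level was 9.88 RPM in AA (8.14 to 11.9), 9.36 in HA (7.68 to 11.3) and 0.300 in AB (0.0618 to 0.876), and the 0 reads of HB allow up to 0.247 RPM (3 reads, the one-sided 95% limit). The WAT libraries did not differ beyond their intervals, and in brain the tag was at or below the limit of 3 reads.

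**Figure D1:**
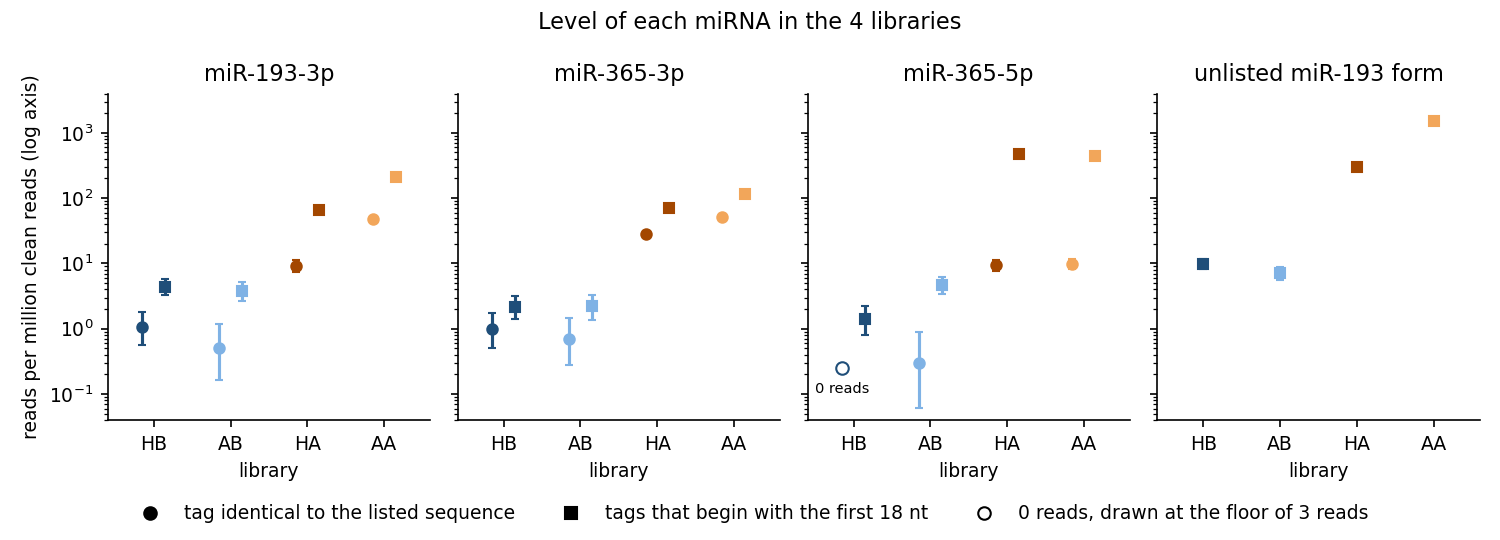
Level of miR-193-3p, miR-365-3p, miR-365-5p and the unlisted miR-193 form (y axis, RPM, log axis) in the libraries HB, AB, HA and AA (x axis). Circles are tags identical to the listed sequence, squares are tags that begin with its first 18 nt, bars are exact 95% Poisson intervals, and the open circle marks 0 reads drawn at the floor of 3 reads. Every WAT value lies above every brain value of the same panel and symbol, and for miR-365-5p in HA the square lies at 475 RPM and the circle at 9.36.

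The comparison between tissues asks where these miRNAs were found. A log2 ratio was scaled by TMM, the trimmed mean method of edgeR, over the 196 listed miRNAs of the 2 libraries. In active bats the log2 ratio of WAT to brain was 6.66 for miR-193-3p (5.43 to 8.29), 6.32 for miR-365-3p (5.26 to 7.64) and 5.14 for miR-365-5p (3.55 to 7.43). These ranked 1, 2 and 6 from the highest among 159 listed miRNAs with at least 10 reads in the pair, whose median was 0.01. All 3 members were higher in AA by a log2 ratio of 1 or more, as were 36.5% of the miRNAs tested, and 74.8% were beyond 1 in either direction. The wide intervals go with the 5, 7 and 3 reads in AB. All 3 members met the minimum of 10 reads only through AA, so their ranks are descriptions only.

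In hibernating bats the log2 ratio of WAT to brain was 3.20 for miR-193-3p (2.36 to 4.15) and 4.95 for miR-365-3p (4.13 to 5.92). For miR-365-5p, with 0 reads in HB, the ratio against the floor of 3 reads in that library was at least 5.34, so that it was at least 40.5-fold higher in HA. The ranks were 24, 9 and 3 of 159. The rank of miR-365-5p was taken with this bound, set among measured ratios. miR-365-5p also met the minimum of reads only through HA, so its rank is a description only. All 3 members were beyond 1. Of the 159, 35.2% were higher in HA by that much and 76.1% were beyond 1 in either direction. miR-193-3p had a smaller ratio between tissues in hibernating than in active bats, with intervals that did not overlap.

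Summed over both states with each library weighted equally, WAT held 97.3% of the RPM of miR-193-3p, 98.0% of miR-365-3p and 98.5% of miR-365-5p. The 0 reads of miR-365-5p in HB were counted as 0 RPM in its share. Among the 130 listed miRNAs with at least 100 reads over the 4 libraries the median was 48.3%, and the members ranked 6, 3 and 2 from the highest. The members reached 100 reads only through their WAT reads, so these ranks are descriptions only.

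The comparison between states asks what differed in hibernation. In WAT, with 106 reads in HA and 541 in AA, miR-193-3p had a log2 ratio of HA to AA of -2.02 (-2.33 to -1.71), which ranked 13 from the lowest among 142 listed miRNAs. The ratio of miR-365-3p was -0.52 (-0.72 to -0.33), and it became 0.26 (0.06 to 0.45) with TMM within the conserved miRNAs only. That of miR-365-5p was 0.27 (-0.12 to 0.66), with an interval that includes 0, and -0.08 (-0.47 to 0.31) with scaling by clean reads. Scaling by the reads of the listed miRNAs gave 0.59 (0.20 to 0.98) for miR-365-5p, and median of ratios gave 0.52 (0.13 to 0.91). Restricting TMM to the conserved miRNAs raised its ratio to 1.05 (0.66 to 1.44), which is beyond 1. Under these other scalings the interval of miR-365-5p left out 0. Of the 3 members, miR-193-3p alone was beyond 1 in size with TMM over all listed miRNAs. Among the 142 miRNAs 49.3% were beyond 1, 28.9% lower and 20.4% higher in HA, and the median ratio was -0.29.

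The level around which these ratios lie depended on the scaling. Relative to TMM over all listed miRNAs, TMM within the conserved miRNAs moved every ratio of HA to AA by 0.78, scaling by the reads of the listed miRNAs by 0.32, median of ratios by 0.25 and scaling by clean reads by -0.35. The median of all 142 moved by the same amounts and was 0.49 with the first and -0.64 with the last. A scaling cannot change which side of this median a miRNA lies on, and miR-193-3p and miR-365-3p lay below it and miR-365-5p above it. The listed miRNAs made up 13.2% of the clean reads in HA, against 20.9% in AA, 24.0% in AB and 20.9% in HB, and the part of this in the ratios was not tested.

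**Figure D2:**
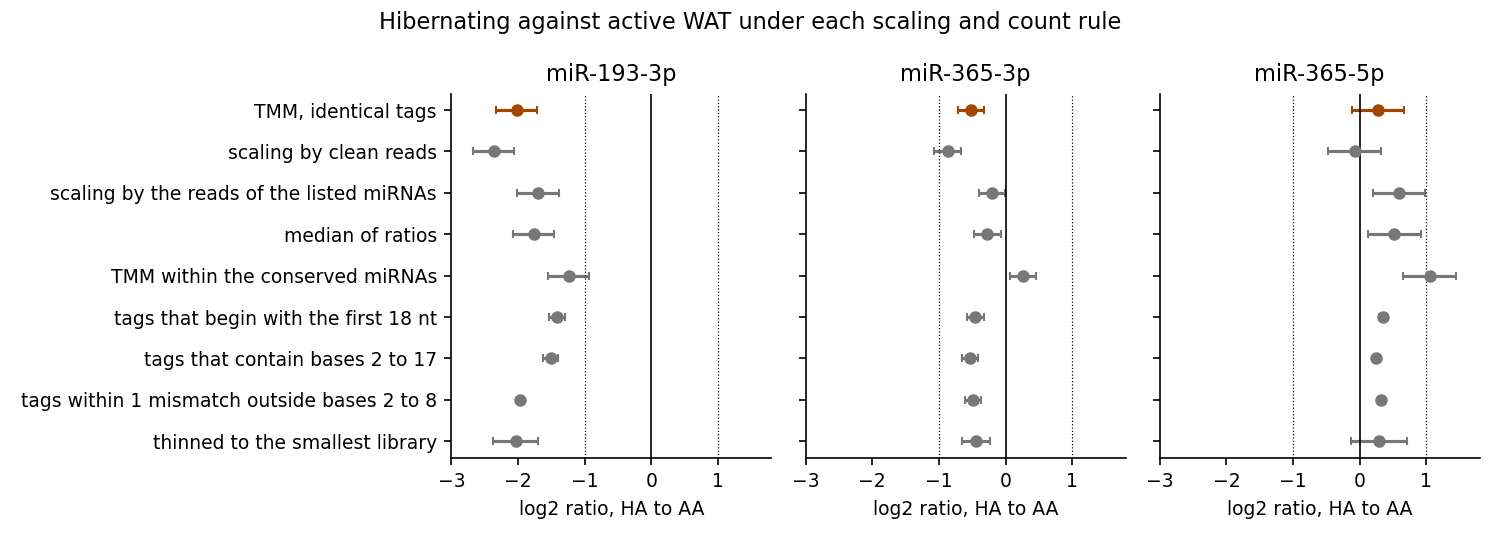
Log2 ratio of hibernating to active WAT (x axis, HA to AA) for each member under the scalings and count rules named on the left. Points are ratios, bars are exact 95% counting intervals, and dotted lines mark -1 and 1. miR-193-3p lies below -1 under each, from -2.36 to -1.24, miR-365-3p turns from below to above 0 to 0.26 once TMM is taken within the conserved miRNAs, and miR-365-5p is above 0 except with scaling by clean reads (-0.08).

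A comparison within 1 library needs no scaling. Of the reads of miR-193-3p and miR-365-3p together, miR-193-3p had 47.5% in AA (44.6 to 50.4) and 24.3% in HA (20.4 to 28.6), so its proportion to miR-365-3p was lower in hibernating WAT by more than counting error. In brain the share was 52% in HB (31.3 to 72.2) and 41.7% in AB (15.2 to 72.3), and no difference was detectable at this depth. With all tags that begin with the first 18 nt, the share was 64.7% in AA (63.1 to 66.2) and 48.3% in HA (45.9 to 50.8), again lower in HA.

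In brain few reads of the members were found. For HB against AB, miR-193-3p had a log2 ratio of 1.39 (-0.19 to 3.23) and miR-365-3p one of 0.79 (-0.68 to 2.37), and both intervals include 0. After thinning to the smallest library the ratio of miR-193-3p was 1.66 (0.08 to 3.51), an interval that leaves out 0. miR-365-5p, with 0 and 3 reads, was at or below the floor in both libraries and has no ratio. Of the 153 listed miRNAs with enough reads 40.5% were beyond 1, 22.9% higher and 17.6% lower in HB, and miR-193-3p was among the higher ones. With tags that begin with the first 18 nt, 53 reads in HB and 38 in AB, its ratio was 0.22 (-0.41 to 0.86), so the value beyond 1 rested on 13 and 5 reads.

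**Figure D3:**
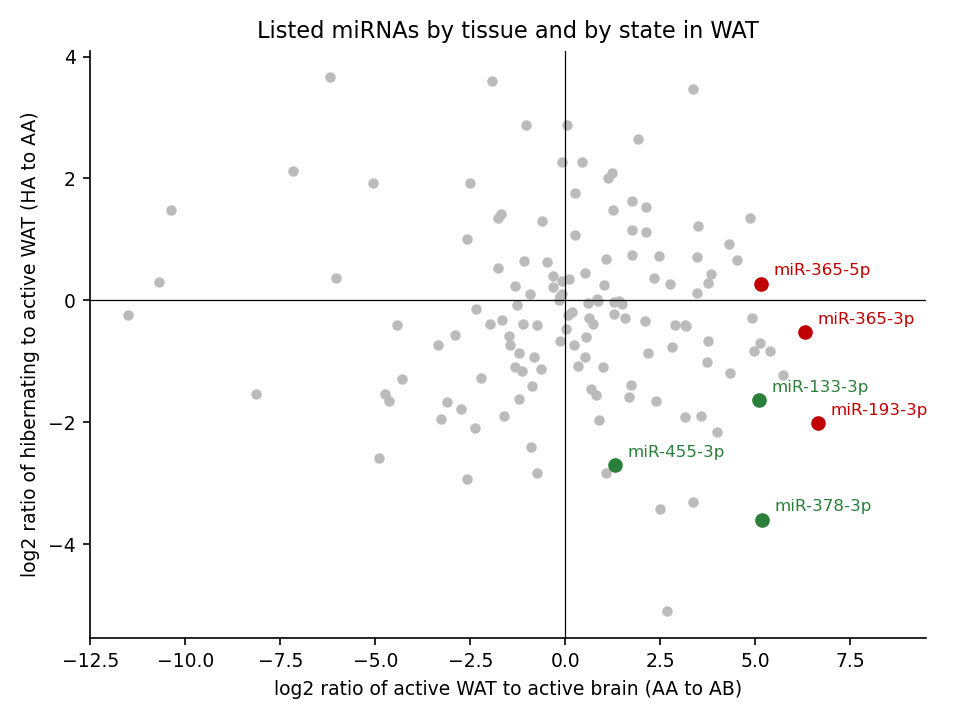
Each point is 1 of 139 listed miRNAs with a ratio in both comparisons, placed by its log2 ratio of active WAT to active brain (x axis) and of hibernating to active WAT (y axis), both scaled by TMM with identical tags. Red points are the members, green points are other miRNAs known from brown fat, and the library AA enters both axes. The members lie at the right, at 5.14 to 6.66, and between -2.02 and 0.27 on the y axis, where miR-365-3p and miR-365-5p change sign with another scaling.

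The listed sequence was only one of many tags of each member. Tags that contained bases 2 to 17 of miR-193-3p numbered 165 with 3440 reads, of which the listed sequence had 19.3% (18.0 to 20.7). For miR-365-3p there were 81 such tags with 2251 reads, and the listed sequence had 42.1% (40.0 to 44.1). For miR-365-5p there were 542 such tags with 14851 reads, and the listed sequence had 1.51% (1.32 to 1.72). It was the most abundant tag of miR-193-3p and of miR-365-3p but not of miR-365-5p.

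The 3 most abundant tags of miR-365-5p are shown because the listed sequence leaves them out, with bases 2 to 8 of each tag in capitals.
tag 1: aAGGGACTttcaggggcagct
tag 2: aAGGGACTttcaggggcagctgt
tag 3: aGGGACTTtcaggggcagctgtg
Tag 1 is the listed sequence with 1 further base, and it had 1230 reads in AA, 1021 in HA, 14 in AB and 7 in HB. Tag 2 had 1135 reads in AA, 1042 in HA, 11 in AB and 2 in HB. Tag 3 begins at the second base of the listed sequence, so that its own bases 2 to 8 read GGGACTT, and it had 721 reads in AA, 455 in HA, 3 in AB and 1 in HB. Each of them had more reads in HA and in AA than the listed tag.

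When every tag that begins with the first 18 nt was counted, miR-365-5p had 5075 reads in AA, 5480 in HA, 46 in AB and 17 in HB, and its level was 444 RPM in AA (432 to 456) and 475 in HA (462 to 488). It then ranked 29 of 196 in HA and 31 in AA, against 63 and 66 with the listed sequence alone. miR-193-3p then had 2438 reads in AA, 771 in HA, 38 in AB and 53 in HB, and miR-365-3p had 1332, 824, 22 and 26 reads in the same order. The member with the fewest reads by the listed sequence was thus the one with the most reads by its first 18 nt.

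With these counts the log2 ratio of HA to AA was -1.42 for miR-193-3p (-1.54 to -1.30), -0.45 for miR-365-3p (-0.58 to -0.33) and 0.35 for miR-365-5p (0.30 to 0.41). miR-193-3p was still beyond 1, as were 29% of 162 miRNAs in that direction. Over the 5 scalings the ratio lay between -1.67 and -1.11 for miR-193-3p, between -0.71 and -0.14 for miR-365-3p and between 0.10 and 0.67 for miR-365-5p, so with this count rule the direction of each member held.

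Between tissues, the first 18 nt gave a log2 ratio of AA to AB of 5.94 for miR-193-3p, 5.86 for miR-365-3p and 6.72 for miR-365-5p. The log2 ratio of HA to HB was 4.04, 5.16 and 8.51 in the same order, and that of miR-365-5p ranked 1 of 178 miRNAs. In brain, miR-365-5p had a log2 ratio of HB to AB of -1.70 (-2.59 to -0.87), which ranked 7 from the lowest of 176, where 15.9% were lower by 1 or more. With this rule miR-365-5p, with 17 and 46 reads, was the only member whose state ratio in brain had an interval that left out 0.

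The difference of the state ratio between tissues, WAT minus brain, was -1.64 for miR-193-3p (-2.29 to -0.997), -0.43 for miR-365-3p (-1.33 to 0.46) and 2.05 for miR-365-5p (1.22 to 2.95) with the first 18 nt. Without replicates this difference was not tested.

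The 2 arms of miR-365 were compared within each library, so their proportion does not depend on the scaling. With the listed sequences, the 5p arm had 15.9% of the reads of both arms in AA (13.3 to 18.8), 24.7% in HA (20.7 to 29.0), 30% in AB (6.67 to 65.2) and 0% in HB (0 to 26.5). The 3p arm was the more abundant in both WAT libraries. With tags that begin with the first 18 nt, the 5p arm had 79.2% in AA (78.2 to 80.2), 86.9% in HA (86.1 to 87.8), 67.6% in AB (55.2 to 78.5) and 39.5% in HB (25.0 to 55.6). Which arm of miR-365 led in WAT thus changed with the count rule, whereas under both rules the 5p share was higher in HA than in AA by more than counting error.

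**Figure D4:**
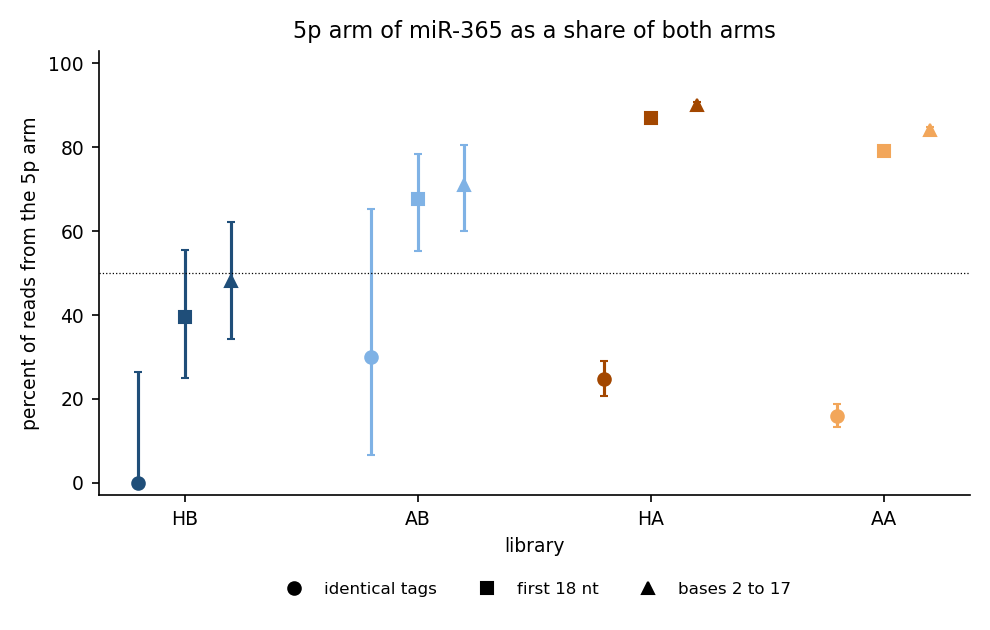
Percent of the reads of both arms of miR-365 that belong to the 5p arm (y axis) in each library (x axis). Circles count tags identical to the listed sequences, squares tags that begin with their first 18 nt and triangles tags that contain bases 2 to 17, bars are exact 95% binomial intervals, and the dotted line marks equal reads of both arms. In WAT the circles lie at 24.7% (HA) and 15.9% (AA) and the squares at 86.9% and 79.2%.

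The start of the tags also differed between members. Of the reads that contained bases 2 to 17 of miR-365-5p, 27.9% in AA (26.8 to 28.9) and 28.1% in HA (27.1 to 29.1) began at its second base, 1974 and 2160 reads, and their seed GGGACTT belongs to 0 listed miRNAs. In brain the shares were 34.6% in HB (17.2 to 55.7) and 22.03% in AB (12.3 to 34.7), from 9 and 13 reads. Over the 4 libraries 3.08% of the reads of miR-193-3p and 0.933% of those of miR-365-3p began at the second base. A shifted seed was therefore more frequent in miR-365-5p than in the other members, and its share did not differ between HA and AA beyond counting error.

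The 3′ ends of miR-193-3p differed between the WAT libraries. Of its reads that begin with the first 18 nt, 46.0% in AA (44.0 to 48.0) and 27.6% in HA (24.5 to 30.9) were shortened versions of the listed sequence, and 13.4% in AA (12.1 to 14.8) and 33.9% in HA (30.5 to 37.3) were extended beyond it. The commonest length was 23 nt in HA and 22 nt in AA. The mean length was 22.2 nt in HA and 21.2 nt in AA, a difference of 0.99 nt that ranked 11 among 104 listed miRNAs. Tags were longer in HA for 89 of the 104, with a median difference of 0.24 nt, so a longer tag in HA was not particular to miR-193-3p. The part of RNA integrity, which the paper reports as lower for AA than for HA, was not tested. The difference was 0.10 nt for miR-365-3p and 0.46 nt for miR-365-5p. Of the reads of miR-365-5p over the 4 libraries, 93.6% (93.1 to 94.0) were extended beyond its listed end.

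**Figure D5:**
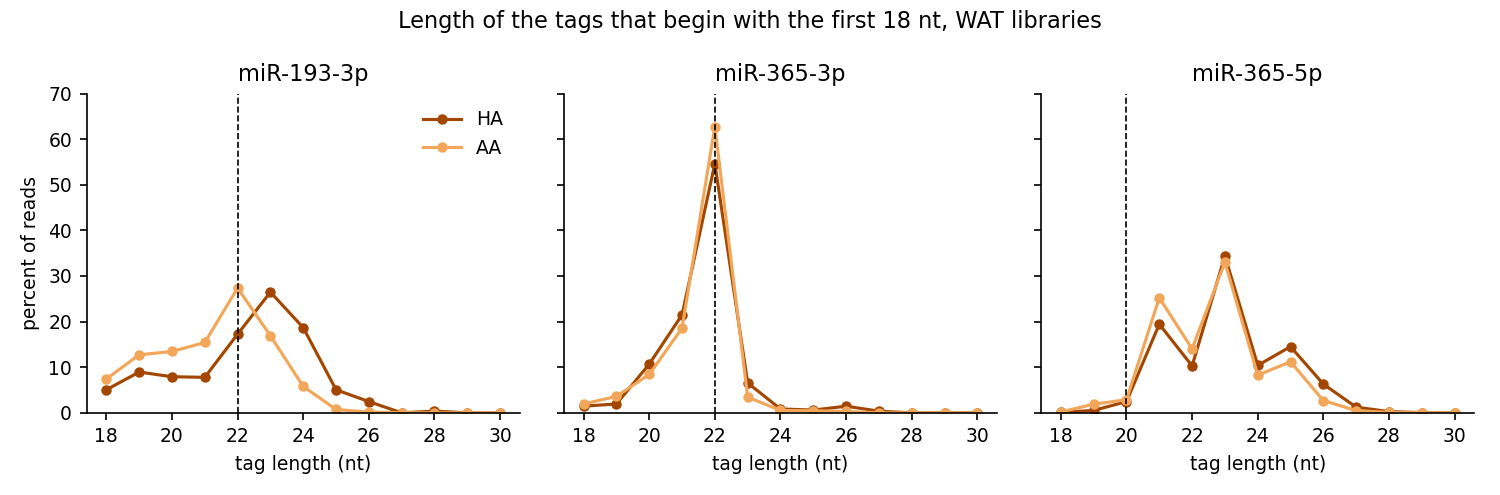
Length of the tags that begin with the first 18 nt of each member (x axis, nt) as percent of its reads (y axis) in hibernating (HA) and active (AA) WAT. Dashed lines mark the length of the listed sequence, 22, 22 and 20 nt. miR-193-3p peaks at 23 nt in HA and 22 nt in AA, miR-365-3p at 22 nt in both, and miR-365-5p at 23 nt in both, past its listed end.

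Tags of 18 to 26 nt with the seed of a member but another sequence, with up to 4 substitutions in the first 18 nt, were searched for. For miR-193-3p 1 sequence exceeded the listed one in reads, and its most abundant tag is shown beside the listed sequence, with the seed and, in the unlisted form, the substituted base after it in capitals.
listed miR-193-3p: aACTGGCCcacaaagtcccgct
unlisted form: aACTGGCCTacaaagtccca
Counted from the 5′ end of the listed sequence, the first 18 nt differ by C9T, and over 20 nt the tags also differ by G20A. Among reads of 20 nt or more, base 20 was G in 98.3% of those with the listed first 18 nt and A in 99.5% of those of the unlisted form, so these differences went together.

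The unlisted form had 17078 reads in AA, 3501 in HA, 71 in AB and 120 in HB by its first 18 nt, against 2438, 771, 38 and 53 reads of the listed form counted alike. Its level was 1493 RPM in AA (1471 to 1516), 303.3 in HA (293 to 314), 7.09 in AB (5.54 to 8.95) and 9.87 in HB (8.18 to 11.8). It would rank 22 among the listed miRNAs in AA and 37 in HA. The listed form had 12.5% of the reads of both in AA (12.03 to 12.96), 18.0% in HA (16.9 to 19.2), 34.9% in AB (25.99 to 44.6) and 30.6% in HB (23.9 to 38.1). It thus had fewer reads than the unlisted form in every library. The word form stands here for a sequence, and whether both come from the same gene was not tested.

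The tag of the unlisted form shown above had 80.01% of its 20770 reads and is not identical to a listed miRNA. Of the 54 sequences that differ from its first 18 nt by a single substitution, the listed form had 3300 reads, and the other 53, seed positions included, had a median of 13 and at most 144, which is 0.693% of the reads of the unlisted form. For miR-365-3p the most abundant sequence with its seed had 17 reads. For miR-365-5p it was GagggactttTGggggca, with A1G, C11T and A12G in capitals, which had 25 reads in AA, 32 in HA, 2 in AB and 2 in HB. In this search an unlisted sequence that outnumbered the listed one was thus found for miR-193-3p and for neither arm of miR-365. The search required the seed at its listed place, so it could not find other sequences that begin at the second base, a frequent start for miR-365-5p.

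The unlisted form was, like the listed one, higher in WAT than in brain and lower in hibernating than in active WAT. Its log2 ratio of HA to AA was -2.05 (-2.10 to -1.99), against -1.42 (-1.54 to -1.30) for the listed form by the first 18 nt, and the intervals did not overlap. This difference depended on the count rule, since the tag identical to the listed sequence had a ratio of -2.02 (-2.33 to -1.71), from 541 reads in AA and 106 in HA, and the most abundant tag of the unlisted form had 13718 and 2735 reads. By the first 18 nt, its log2 ratio of AA to AB was 7.85 (7.51 to 8.21) against 5.94 (5.48 to 6.44), and that of HA to HB 5.04 (4.78 to 5.32) against 4.04 (3.64 to 4.47), again without overlap. In brain the ratio of HB to AB was 0.50 (0.06 to 0.94), and 0.39 (-0.04 to 0.84) with TMM within the conserved miRNAs, an interval that includes 0.

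The members were next set beside other miRNAs known from brown fat. miR-378-3p, whose host gene encodes a coactivator of oxidative metabolism and which promotes brown fat, had 180178 reads in AA, 11775 in HA, 4624 in AB and 1459 in HB. miR-455-3p, which promotes the formation of brown adipocytes, had 535, 65, 201 and 209 reads in the same order. miR-133-3p, a muscle miRNA that represses the brown fat regulator Prdm16, had 331, 84, 9 and 4 reads. Each of the 3 was highest in AA. Their log2 ratios of HA to AA were -3.60 for miR-378-3p (-3.63 to -3.57), -2.70 for miR-455-3p (-3.10 to -2.33) and -1.64 for miR-133-3p (-2.01 to -1.29). All 3 were thus lower in HA by more than 1 with TMM over all listed miRNAs, as were miR-193-3p and 28.9% of the 142 miRNAs, whereas neither arm of miR-365 was. TMM within the conserved miRNAs, which moves each ratio by 0.78, leaves miR-133-3p within 1. miR-455-3p differed from the members between tissues, since in hibernating bats it was lower in WAT than in brain, with a log2 ratio of HA to HB of -1.52 (-1.94 to -1.11).

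Of the miRNAs linked to adipocyte formation in general, miR-22-3p had a log2 ratio of HA to AA of 0.27 (0.23 to 0.31), miR-130-3p of -1.01 (-1.10 to -0.91) and miR-148-3p of 0.08 (-0.05 to 0.20). The sign of miR-22-3p and of miR-148-3p changes with scaling by clean reads, which moves each ratio by -0.35. With TMM over all listed miRNAs 1 of the 3, miR-130-3p, was lower by 1 or more, beside 28.9% of all 142, and it was within 1 with TMM within the conserved miRNAs, listed reads or median of ratios. With 3 miRNAs in each list, the difference between the lists was not tested.

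miRNAs of other cell types were read beside these results. The muscle miRNAs miR-1-3p, miR-133-3p and miR-206-3p summed to 18253 RPM in AA and 17409 RPM in HA, mostly miR-1-3p, and to 1605 RPM in AB and 1948 RPM in HB. Their log2 ratios of HA to AA were 0.29 for miR-1-3p, -0.06 for miR-206-3p and -1.64 for miR-133-3p, which also stands in the brown fat list, and the signs of miR-1-3p and miR-206-3p change with the scaling. Those of stroma and vessels, miR-199-3p, miR-199-5p and miR-145-3p, summed to 40201 RPM in AA and 13586 RPM in HA, mostly miR-199-3p with 458628 and 156158 reads. Their log2 ratios of HA to AA were -1.22, -0.82 and 0.67 with TMM over all listed miRNAs. By these, miR-199-3p alone was lower by 1 or more, beside 28.9% of all 142, and it too was within 1 with those 3 other scalings. Scaling by clean reads put miR-199-5p below -1 as well, and TMM within the conserved miRNAs put miR-145-3p above 1. Those of blood cells, miR-486-5p, miR-486-3p, miR-142-5p and miR-142-3p, summed to 268 RPM in AA and 253 RPM in HA, and 0 of the 4 were beyond 1 with TMM over all listed miRNAs, beside 49.3% of all 142. Scaling by clean reads put 2 of them, miR-486-3p and miR-142-3p, below -1, and TMM within the conserved miRNAs put miR-486-5p and miR-142-5p above 1. The epithelial miR-200a-3p had 0 reads in AA and 30 in HA, and miR-200b-3p 28 and 269. No miRNA of the muscle, stroma and blood lists was at 0 in both WAT libraries. The summed levels of stroma moved down and those of epithelium up in HA beside the lower miR-193-3p, and their part in its level was not tested.

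The listed miRNAs with a pattern most like each member were found by the distance between shares of RPM over the 4 libraries, from 0 for equal shares to 1, among the 130 miRNAs with at least 100 reads. Nearest to miR-193-3p were miR-133-3p at 0.0516, the bat-specific tgatcagccgttgcctctct at 0.0853, miR-199-3p at 0.0940, miR-574a-5p at 0.101 and miR-378-3p at 0.111, with a median distance of 0.624 over all. miR-133-3p belongs to both the brown fat and the muscle list, miR-378-3p to the brown fat list and miR-199-3p to the stroma list. With tags that begin with the first 18 nt, miR-133-3p was again nearest, at 0.0139.

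Nearest to miR-365-3p were the bat-specific gatcgggcctaaaccggcagtt at 0.0441, miR-199-5p at 0.0493, the bat-specific gatcgggcctaaaccggcagc at 0.0524 and caggggatgtccgactgct at 0.0781, and miR-16-5p at 0.0843. Nearest to miR-365-5p were miR-1-3p at 0.0693, miR-142-5p at 0.0804, miR-145-3p at 0.0916, gatcgggcctaaaccggcagtt at 0.101 and miR-503-5p at 0.107. The neighbours of miR-365-5p by its listed tag thus held a muscle, a blood and a vessel miRNA. With tags that begin with the first 18 nt, the bat-specific aaatttctggaggatgag was nearest to it at 0.0266, followed by miR-1-3p at 0.0794, and miR-142-5p was no longer among the 5 nearest. Nearest to miR-365-3p were then miR-1468-5p at 0.0568 and miR-199-5p at 0.0578. Between the members the distance was 0.140 for the 2 arms of miR-365, 0.188 for miR-193-3p and miR-365-3p and 0.327 for miR-193-3p and miR-365-5p, so that miR-193-3p had other miRNAs nearer to it than either arm of miR-365. With the first 18 nt these distances were 0.142, 0.140 and 0.282, and the arms were no longer the closest pair. With 4 libraries these distances are descriptions only.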

How the data were processed

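The authors sequenced size-selected small RNA of 4 pooled libraries on an Illumina platform, removed adapters, reads with low quality and short reads, and deposited the raw count of each distinct tag of 18 to 30 nt per library, without normalization. Reads of the members were counted here as tags identical to the mature sequences in the study's list and, as alternatives, by their first 18 nt, bases 2 to 17 or 1 mismatch outside the seed. The scale of log2 ratios was TMM (edgeR 4.0.16, R 4.3.3), with clean reads, listed reads, DESeq2 1.42.0 size factors, TMM within conserved miRNAs and libraries thinned to 10007650 reads as alternatives. Levels carry exact Poisson, and shares and ratios exact Clopper-Pearson, 95% intervals, and differences of state ratios between tissues the exact conditional interval of an odds ratio (SciPy 1.17.1). miRNAs needed 10 reads in a pair, a floor of 3 reads replaced 0, and no ratio was given with 3 or fewer in both. No test was run, since 1 library per group leaves no replicate within a tissue and state. The scripts were tested on simulated data. miRNAs named are the members, those sharing a seed, the 5 nearest patterns, the lists of cell types and adipose tissue, and the 3 most abundant tags or groups. Members and lists were chosen with earlier results of these data known. No genome was used here, so no coordinates are given.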

Additional observations from a re-analysis of the deposited data

Results flagged for a closer look

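Some sequences outside the list of 196 had reads above the limit that a count of 0 allows. The unlisted form with the seed of miR-193-3p had 17078 reads in AA, 3501 in HA, 71 in AB and 120 in HB. The sequence GagggactttTGggggca, with the seed of miR-365-5p, had 25 reads in AA and 32 in HA. Tags of miR-365-5p that start at its second base, and so have another seed, had 1974 reads in AA and 2160 in HA.

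For the listed sequences of miR-193-3p and miR-365-3p, the ratio of hibernating to active bats was below 0 in WAT and above 0 in brain, where both intervals include 0, except that of miR-193-3p after thinning to the smallest library (1.66, 0.08 to 3.51). The log2 ratio in WAT minus that in brain was -3.40 for miR-193-3p (95% counting interval -5.27 to -1.78) and -1.31 for miR-365-3p (-2.90 to 0.17). With 1 library per condition this difference was not tested, and the brain values rest on 13 and 5 reads of miR-193-3p and on 12 and 7 reads of miR-365-3p. With tags that begin with the first 18 nt, the ratio of miR-193-3p in brain was 0.22 and its difference between tissues -1.64. For miR-365-3p the directions were no longer opposite with TMM within the conserved miRNAs, nor with tags that begin with the first 18 nt, where the ratio in brain was -0.02.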

How the results depend on the processing

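The labels carry no replicate numbers, and with 1 library per condition no replicate could be left out. The shared bats match the tissues within a state, and the ratio of WAT to brain is given for each state, whereas a fit over both states with the state as a block was not run. The ratio of HA to AA of miR-193-3p was -2.36 with clean reads, -1.70 with listed reads, -1.24 with TMM within the conserved miRNAs, -1.42 with the first 18 nt and -1.51 with bases 2 to 17. That of miR-365-3p was -0.87 with clean reads, -0.20 with listed reads, -0.27 with median of ratios and 0.26 with TMM within the conserved miRNAs, which gave 1.05 for miR-365-5p. In the ratio of HA to HB, miR-193-3p rose to 4.30 with bases 2 to 17 and 4.72 with 1 mismatch, a rule under which 20770 of 24236 reads belong to the unlisted form, and the bound of miR-365-5p was 5.25 with clean reads, 5.18 with median of ratios, 5.24 with TMM within the conserved miRNAs and 5.08 after thinning, against ratios of 8.51 with the first 18 nt and 8.57 with bases 2 to 17. The difference of the state ratio between tissues for miR-193-3p was -1.64 with the first 18 nt and -1.71 with bases 2 to 17. The 5p share of miR-365 in HB, AB, HA and AA was 39.5%, 67.6%, 86.9% and 79.2% with the first 18 nt and 48.1%, 71.1%, 90.0% and 84.0% with bases 2 to 17. The share of miR-193-3p against miR-365-3p became 48.3% and 48.8% in HA and 64.7% and 65.3% in AA by these rules, and the listed sequence was 1.97% in HA and 2.23% in AA of the miR-365-5p tags that begin with the first 18 nt. Counts of miRNAs beyond 1 were 62 for HB to AB, 70 for HA to AA, 119 for AA to AB and 121 for HA to HB, and with at least 100 reads 32, 38, 74 and 78. Beyond 2 they were 21 for HB to AB and 26 for HA to AA. The cause of the other changes was not tested, apart from fewer miRNAs being counted at 100 reads. Depth limits the brain values of the members, which rest on 13 reads or fewer of the listed sequences.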
